A study of Homo sapiens with 59 samples.

Results

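HepG2, a cell line from a human liver carcinoma that keeps many functions of hepatocytes, was compared after 24 h with a hot water extract of Coptidis Rhizoma at 8.4 ug/mL and after 24 h with vehicle. The members of the comparison were 3 libraries labelled Coptidis Rhizoma at the low dose and 3 labelled vehicle, 6 of the 59 libraries of the series, and all genes of the table were read. Vehicle cells had 0.1% DMSO by the sample labels and 2% by the text of the series, and the labels give no DMSO content for the extract. The dose of 8.4 ug/mL was the lowest of 3, each a 5-fold dilution of the one above it (210 and 42 ug/mL), with the highest set at the extract's IC20 by the text of the series. Whether the 3 replicates of a group were separate cultures is not stated. The p-values speak only of the spread between libraries of the same group, pooled over all 20 groups of the series, and that spread may be technical. All cells were of 1 line, kept in medium with serum.

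Coptidis Rhizoma is the dried rhizome of Coptis plants and owes its yellow colour and bitter taste to isoquinoline alkaloids, of which berberine is the best known. Berberine is a lipophilic cation that gathers in mitochondria, where it is known to inhibit respiratory complex I. The aryl hydrocarbon receptor (AHR) is a ligand-activated transcription factor whose target CYP1A1 is a standard readout in HepG2 cells. The mitochondrial genome is read as long precursor RNAs from both strands, with the heavy strand RNA beginning ahead of MT-RNR1, and these are cut into rRNAs, mRNAs and tRNAs.

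Total counts of the 6 libraries lay between 24395925 and 29215945, and 21221 to 21583 genes had a count. Of 16641 genes tested with edgeR, 2656 were called at an adjusted p under 0.05 (16% of those tested), 1427 of them higher (8.58%) and 1229 lower (7.39%) with the extract. Most changes were small: the median absolute log2 change of the called genes was 0.24, and 258 genes (1.55%) were called and changed at least 1.5-fold, 170 of them higher and 88 lower. A list's counts stand against these shares, and a count of 1 to 3 members is given as a description only. The vehicle and Coptidis libraries did not overlap in 5660 of the 16641 tested genes and in 2567 of the 2656 called, so that lack of overlap in a called gene is the rule. Levels below are in CPM, counts per 1e6 counts with TMM scaling. The 10 hepatocyte markers, ALB and AFP among them, summed to 44140 to 45000 CPM in vehicle and 41410 to 42340 CPM with the extract. Of these 10, 5 were called lower and none higher. PTPRC, CD163, CD3E and MS4A1, which define leukocytes and macrophages, were at 0 counts in all 6 libraries, as were COL1A2, DCN and LUM of fibroblasts. The 7 fibroblast and stellate cell markers summed to 59.14 to 63.33 CPM in vehicle and 52.23 to 57.38 CPM with the extract, with 1 of 3 tested called lower. Endothelial markers summed to 3.161 to 5.087 and 3.63 to 3.821 CPM, and none of 3 tested was called. Those of cholangiocytes summed to 484.8 to 501.8 and 487.3 to 521.4 CPM, with 1 of 3 tested called higher. The leukocyte list as a whole summed to 1399 to 1408 CPM in vehicle and 1839 to 1953 CPM with the extract, with 2 of its 3 tested members (CD68, CD14 and LYZ) called higher, and the part of other cells in the results was not tested.

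The titles of all 59 libraries carry the label BatchA. The vehicle libraries also carry the code A1 in their titles and the Coptidis libraries the first number 4, whose meaning is not stated, so title code and treatment cannot be told apart in this comparison. The 9 libraries of Zizyphi Fructus (jujube extract at 20, 100 and 500 ug/mL) carry the same number 4. They are no controls, since those cells had another extract, but they give each gene's value beside libraries of the same number. Against their mean, 2989 genes were called (18%), 1658 higher (9.96%) and 1331 lower (8%). Both comparisons share the Coptidis libraries, and their values are set side by side below.

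The vehicle libraries also differed from both extracts by base composition. The median log2 change against vehicle was -0.03 for genes of up to 38% GC, 0.11 for genes of 62 to 66% GC, 0.15 for those of 66 to 70% and 0.38 for the 52 genes above 70%. Against Zizyphi Fructus the same medians were 0.02, 0.00, -0.02 and -0.05. After each library's trend with GC content was taken out, 1418 genes were called higher (8.52%) and 1239 lower (7.45%). List counts below are without this correction. With it, 15 of the 20 mitosis genes were lower in place of 17, the counts of the NRF2, p53, nuclear respiratory chain and mitochondrial RNA handling lists are given with them, and each other list described moved by at most 1 member in a direction.

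**Figure D1:**
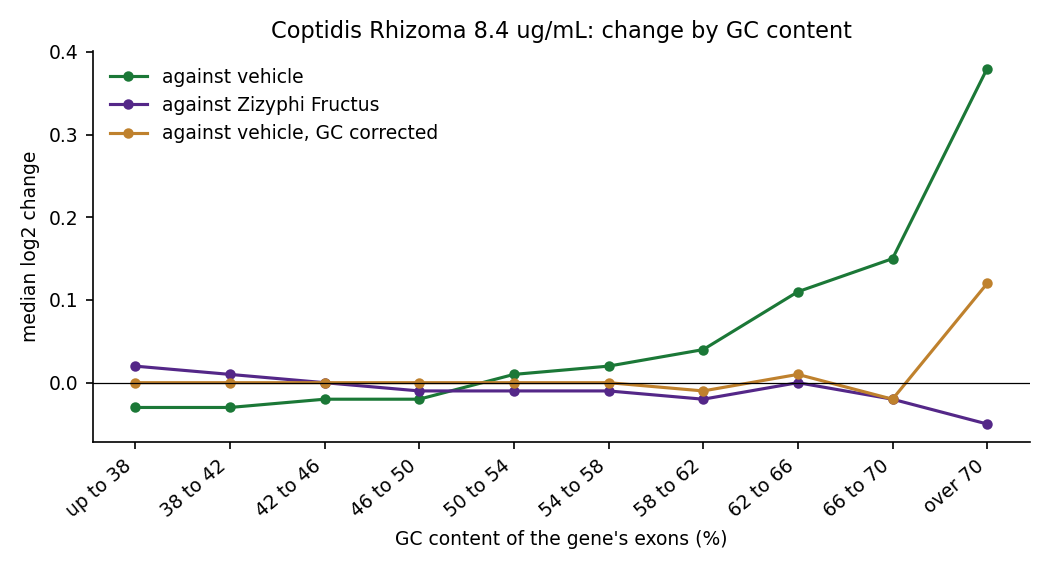
Median log2 change of the genes in each class of exonic GC content, for Coptidis Rhizoma 8.4 ug/mL against vehicle, against Zizyphi Fructus, and against vehicle after GC correction. The line against vehicle climbs to 0.38 in the 52 genes above 70% GC, where the line against Zizyphi Fructus is at -0.05 and the corrected one at 0.12.

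The stretches of promoter that follow hold the letters known as the core of the response elements of 3 of the groups described below. They are RefSeq sequence of build GRCh38.p14, read 5′ to 3′ on the gene's strand, with the matched letters in capitals and positions counted back from the RefSeq start. CYP1A1 (chr15:74725569-74725598) holds the AHR core GCGTG at -57. ASNS (chr7:97872458-97872487) and ATF3 (chr1:212565180-212565259) hold the amino acid response core TGATGNAA at -68 and -191. ARRDC4 (chr15:97960456-97960535) holds the E-box CACGTG at -210, the letters bound by the glucose sensor MondoA and by many other factors.
CYP1A1: tccagggaaggagGCGTGgccacacgtaca
ASNS: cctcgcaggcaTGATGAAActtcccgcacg
ATF3: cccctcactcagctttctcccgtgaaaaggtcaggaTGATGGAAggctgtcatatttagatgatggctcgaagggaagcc
ARRDC4: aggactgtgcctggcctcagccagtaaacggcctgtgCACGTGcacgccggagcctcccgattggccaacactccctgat
Both strands were searched from 250 bases before to 50 after the start of 27305 genes. GCGTG stood in 36.3% of all windows, in 4 of the 6 windows of called AHR targets and in 4 of the 4 of targets that were not called. TGATGNAA stood in 3.67% of all windows and in 3 of the 15 of called members of the ATF4 list and 1 of the 4 of members not called. CACGTG stood in 7.43% of all windows, in 1 of the 3 of called members of the glucose sensing list and 1 of the 4 of members not called, and the window of TXNIP does not hold it. A match is a description of the letters and shows no binding.

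Transcripts of the mitochondrial genome changed most, and not in 1 direction. Of the 15 measured, 6 rose and 7 fell, where 16% of all genes were called. Both rRNAs rose, MT-RNR1 (chrM:648-1601, the 12S rRNA of the small ribosomal subunit) 10.1-fold and MT-RNR2 (chrM:1671-3229, the 16S rRNA of the large subunit) 4.57-fold. The mRNAs from MT-CO1 to MT-ND4 on the heavy strand fell, other than MT-ATP8, which did not pass the test, and MT-ND5, MT-ND6 and MT-CYB at its far end rose.

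MT-RNR1 stood at 4224, 4265 and 3952 CPM in the vehicle libraries and at 42200, 45570 and 37480 CPM with the extract (log2 change 3.33, SE 0.104, edgeR adjusted p = 1.25e-29). MT-RNR2 stood at 20380, 19320 and 20180 CPM in vehicle and at 91710, 100900 and 81320 CPM with the extract (2.19, SE 0.0804, adjusted p = 6.29e-27). The groups did not overlap for either rRNA. Across the 50 libraries of the series without Coptidis, MT-RNR1 ranged from 3851 to 11870 CPM and MT-RNR2 from 17300 to 35360 CPM, all below the 3 Coptidis libraries. Per length, MT-RNR1 rose from 4347 ± 178.5 to 43760 ± 4261 CPM per kb (SD, n = 3) and MT-RNR2 from 12800 ± 362 to 58570 ± 6281 CPM per kb. In vehicle MT-RNR1 thus lay under MT-CO3 (10490 ± 405.5 CPM per kb), MT-CO2 (10190 ± 522) and MT-CO1 (9498 ± 691), and with the extract both rRNAs lay above every mitochondrial mRNA. These are counts in libraries of a kit named for mRNA. They give the rRNA that entered the libraries, and the amount of rRNA in the cells was not measured.

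**Figure D2:**
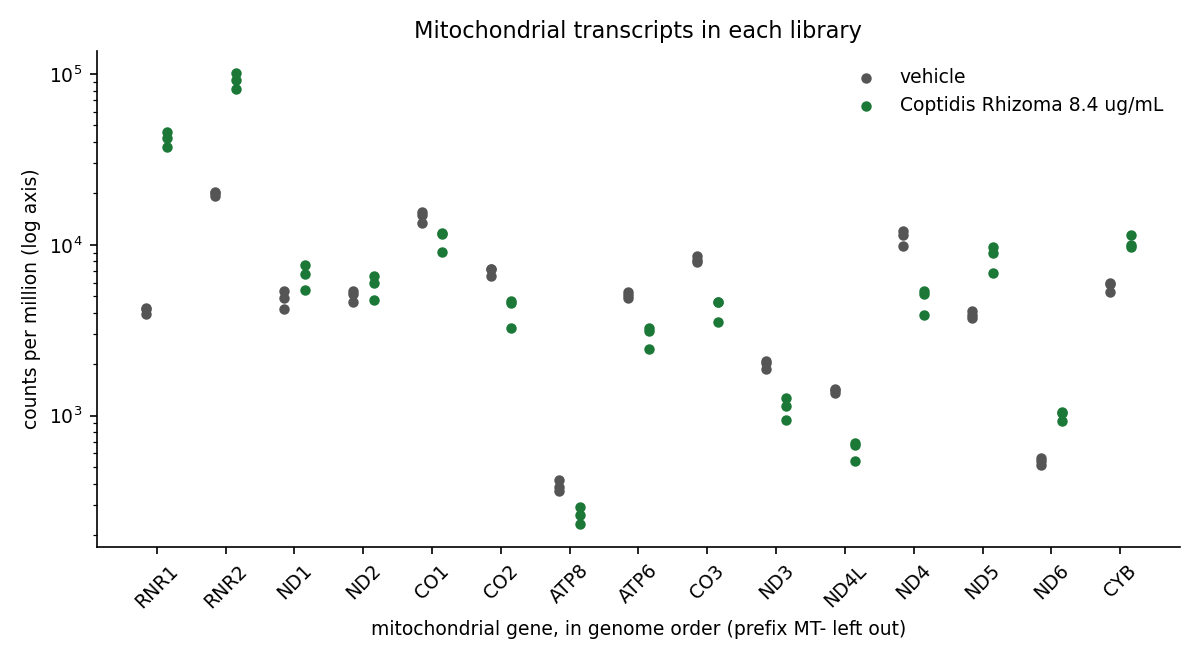
Level of each transcript of the mitochondrial genome in the 3 vehicle libraries and the 3 libraries of Coptidis Rhizoma 8.4 ug/mL, in CPM on a log axis, 1 point per library. The points of MT-RNR1 and MT-RNR2 lie far above vehicle and those of MT-CO3, MT-ND4L and MT-ND4 below it, while MT-ND2 overlaps.

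Along the heavy strand the log2 change declined with distance from MT-RNR1 and then turned. MT-ND1, a subunit of complex I and the first mRNA after the rRNAs, stood at 4869, 4199 and 5354 CPM in vehicle and 7577, 6701 and 5432 CPM with the extract (0.45, SE 0.115, adjusted p = 0.0037). The lowest Coptidis library was close to the highest vehicle library, the call was lost without vehicle replicate 2 or Coptidis replicate 1, and against Zizyphi Fructus the change was 0.25 (adjusted p = 0.0545). MT-ND2 followed with 0.19 (SE 0.103) and overlapping groups. MT-CO1, the catalytic subunit of cytochrome c oxidase, fell by 0.44 on the log2 scale and MT-CO2 by 0.74. MT-ATP6, a subunit of ATP synthase, fell by 0.79, MT-CO3 by 0.95, MT-ND3 by 0.84, MT-ND4L by 1.14 and MT-ND4 by 1.21.

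MT-ND4, a subunit of the membrane arm of complex I, had the largest fall of all named genes: 11400, 9887 and 12110 CPM in vehicle against 5335, 5182 and 3902 CPM with the extract (SE 0.105, adjusted p = 8.72e-13). MT-CO3 stood at 8570, 7945 and 8157 CPM in vehicle and 4611, 4640 and 3524 CPM with the extract (SE 0.0872, adjusted p = 5.08e-12). Neither gene's groups overlapped, and both lay under the range of the 50 libraries without Coptidis, 9275 to 14390 CPM for MT-ND4 and 6973 to 10460 CPM for MT-CO3. MT-ATP8, at 382.3, 421.7 and 360.1 CPM in vehicle and 262.4, 291.9 and 231.8 CPM with the extract, did not pass the test (-0.57, SE 0.213), although its groups did not overlap. It was the only transcript with a negative change that was not called, and was called in 0 of 6 fits without 1 library. The count lower was 8 in place of 7 in a fit of the 2 groups alone, with no filter on low counts, and without 3 libraries of other groups that differ from the rest.

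Past MT-ND4 the direction changed. MT-ND5, which lies next on the heavy strand, stood at 3899, 3747 and 4071 CPM in vehicle and 9005, 9666 and 6853 CPM with the extract (1.12, SE 0.119, adjusted p = 3.12e-10). MT-CYB, the cytochrome b of complex III, stood at 5858, 5290 and 5954 CPM in vehicle and 10030, 11370 and 9743 CPM with the extract (0.87, SE 0.0884, adjusted p = 1.28e-10). MT-ND6, the mRNA coded by the light strand, stood at 566.3, 516.4 and 538.9 CPM in vehicle and 1053, 1042 and 935 CPM with the extract (0.90, SE 0.139). No groups overlapped for these 3 genes. The 50 libraries without Coptidis ranged from 3240 to 5538 CPM for MT-ND5, from 4786 to 6901 CPM for MT-CYB and from 420.1 to 952 CPM for MT-ND6, and the lowest Coptidis library of MT-ND6 fell inside that range.

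**Figure D3:**
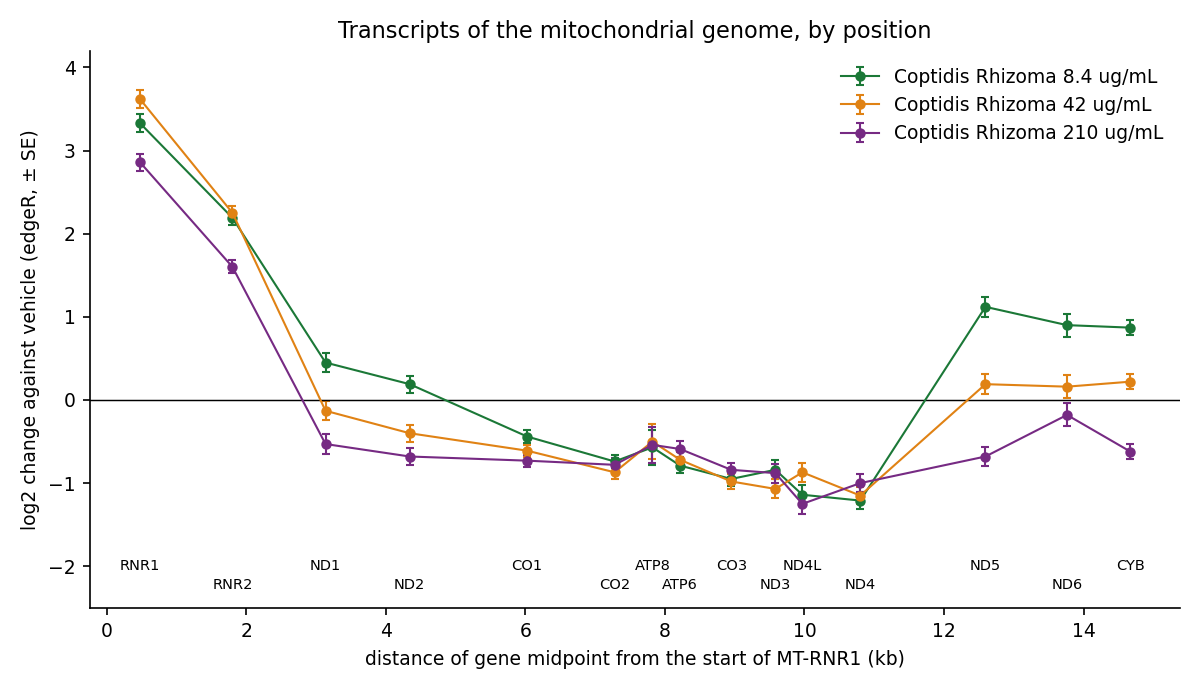
Log2 change against vehicle (edgeR, ± SE) of each mitochondrial transcript, placed by the distance of its midpoint from the start of MT-RNR1, for the 3 doses of Coptidis Rhizoma, which share the vehicle libraries. At 8.4 ug/mL the values run from 3.33 at MT-RNR1 to -1.21 at MT-ND4 and then to 1.12 at MT-ND5, and at 210 ug/mL the last 3 genes lie below 0.

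As a share of all counts, mitochondrial rRNA made up 2.46% ± 0.0416 (SD, n = 3) in vehicle and 12.2% ± 1.11 with the extract, and mitochondrial mRNA 7.14% ± 0.414 and 5.62% ± 0.692. The ratio of the 2 sums was 0.342, 0.364 and 0.331 in vehicle, 2.03, 2.22 and 2.30 with 8.4 ug/mL, and between 0.284 and 0.393 in the 9 Zizyphi Fructus libraries. Coptidis replicate 3 had the lowest mitochondrial share of its group (15.9% against 18.3% and 19.3%). Leaving out each of the 6 libraries in turn moved the log2 change of MT-RNR1 between 3.27 and 3.41, of MT-ND4 between -1.29 and -1.08 and of MT-ND5 between 1.02 and 1.26, and all 3 were called each time. With mitochondrial genes taken out of the totals and the scaling, 2648 other genes were called.

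At 42 ug/mL both rRNAs were near their level at 8.4 ug/mL: MT-RNR1 differed by 0.29 (edgeR adjusted p = 0.015) and MT-RNR2 by 0.06 (adjusted p = 0.633). MT-ND5, MT-ND6 and MT-CYB were lower at 42 than at 8.4 ug/mL, by 0.94, 0.75 and 0.65 on the log2 scale (adjusted p = 6.29e-09, 2.24e-05 and 3.61e-08), where 31.7% of all genes were called between these doses. MT-ND4 differed by 0.06 (adjusted p = 0.712). The rise of the far end was thus larger at the lowest dose than at the next, while the fall of MT-ND4 was of like size at both (-1.21 and -1.15 against vehicle).

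The library kit is named as directional and for mRNA, and neither the removal of rRNA nor the strand setting of the counting is given in the sources used here, so reads from antisense precursor RNA cannot be told apart from those of a gene, and MT-ATP8 and MT-ATP6, MT-ND4L and MT-ND4 overlap. Copies in the nuclear genome can share reads: MTATP6P1 fell from 583.5 to 425.4 CPM (-0.46, adjusted p = 0.00237), as MT-ATP6 did, and MTND2P28 had 235.4 and 227.9 CPM (adjusted p = 0.836).

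The nuclear side of the respiratory chain hardly moved. Of 26 nuclear subunits 1 was called higher (UQCRFS1, the Rieske protein of complex III, 0.28) and 1 lower (SDHA of complex II, -0.10), with a median of 0.05. Neither passed against Zizyphi Fructus, where 5 of the 26 were called higher, as were 5 after GC correction. The call of UQCRFS1 was lost without vehicle replicate 3, and that of SDHA after GC correction and without 4 of the 6 libraries in turn. UQCRFS1 has a processed copy, UQCRFS1P1, whose values are given below. TFAM, which packages mitochondrial DNA and starts its transcription, stood at 116.5, 124.2 and 118.2 CPM in vehicle and 119.3, 115.6 and 113.6 CPM with the extract and did not pass the test (-0.04, adjusted p = 0.474), with overlapping groups.

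Genes of mitochondrial RNA handling and protein quality rose in part, 10 of 19 with none lower and a median of 0.11. They included PPARGC1A, a coactivator of mitochondrial biogenesis (0.39), MRPS12 of the small mitochondrial ribosomal subunit (0.27), the matrix protease LONP1 (0.22) and LRPPRC, which stabilises mitochondrial mRNAs (0.18). LRPPRC stood at 558.2, 565.3 and 545.5 CPM in vehicle and 629.9, 644.8 and 620.2 CPM with the extract, with no overlap. The count was 9 of 19 against Zizyphi Fructus, 9 after GC correction and 6 without Coptidis replicate 3.

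Among nuclear genes with a symbol, at least 1 CPM and a called change in both comparisons, the AHR target CYP1A1 (chr15:74719542-74725610), a cytochrome P450 that oxidises aromatic hydrocarbons, rose most. It stood at 11.5, 11.9 and 13.6 CPM in vehicle and 79.3, 70.0 and 74.0 CPM with the extract, 6.04-fold (2.59, SE 0.0919, adjusted p = 2.14e-27). The Coptidis libraries lay far above vehicle and above the 9 Zizyphi Fructus libraries (10.0 to 18.8 CPM). It went on to 301.6 ± 6.1 CPM at 42 ug/mL and 2254 CPM at 210 ug/mL (42 against 8.4: 2.02, adjusted p = 1.36e-27).

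Of the 12 AHR targets that passed the low-count filter over all groups, 7 were called higher and none lower, with a median of 0.27, against 8.58% of all genes called higher. Among the 7 is CYP1A2, whose counts in these 6 libraries were too few to pass that filter by themselves, and in a fit of the 2 groups alone 9 members were tested and 6 called higher. ALDH3A1, an aldehyde dehydrogenase, stood at 0.386, 0.266 and 0.481 CPM in vehicle and 1.34, 0.630 and 1.25 CPM with the extract, 2.84-fold higher (adjusted p = 0.000184). CYP2S1, another cytochrome P450, rose by 0.93, AHR itself by 0.37 and the quinone reductase NQO1 by 0.32. CYP1A2, the neighbour of CYP1A1, had 0 counts in the 3 vehicle libraries and 0, 4 and 4 with the extract. With vehicle set at a floor of 3 counts over the group the fold is 2.8, a value that leaves out the spread of so few counts. AHRR (0.16), TIPARP (-0.07) and CYP1B1 did not pass the test. The list had the same count, 7 of 12, against Zizyphi Fructus and after GC correction, and the same median with CYP1A2 at its fold against the floor.

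Targets of ATF4, the transcription factor of the integrated stress response to amino acid shortage, ER stress and mitochondrial stress, rose as a group. Of 25 tested, 20 were called higher and none lower, with a median of 0.42, and 21 of 25 were higher against Zizyphi Fructus. GDF15 (chr19:18374731-18389176), a secreted stress hormone, stood at 137.2, 133.7 and 151.3 CPM in vehicle and 342.1, 308.7 and 369.9 CPM with the extract, 2.42-fold (1.27, SE 0.0563, adjusted p = 1.81e-23). SLC7A11, the cystine carrier, stood at 53.04, 55.57 and 52.48 CPM in vehicle and 112.1, 120.8 and 106.8 CPM with the extract (1.08, SE 0.0693). Asparagine synthetase, ASNS, stood at 47.0, 44.4 and 40.2 CPM in vehicle and 70.5, 74.5 and 75.7 CPM with the extract (0.75, SE 0.0518). None of the 3 genes had overlapping groups.

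STC2, a secreted glycoprotein (0.72), and TRIB3, a pseudokinase that feeds back on the response (0.58), rose as well. Of the members named after their values were seen, DDIT4, an inhibitor of mTORC1, rose by 0.82 and the mitochondrial folate enzyme MTHFD2 by 0.62. PHGDH (0.01) and PSPH (-0.02) of serine synthesis did not pass the test, and neither did DDIT3 (0.23, adjusted p = 0.0995). CHAC1 had 0 counts in vehicle and 2, 0 and 4 with the extract, and the list's median is 0.42 also with it set against the same floor. At 42 ug/mL the group's median against vehicle was 1.11.

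ER chaperones, whose genes belong to the other arms of the unfolded protein response, did not follow. Of 18, 2 were called higher and 5 lower, with a median of -0.07. HSPA5, the main ER chaperone, had 1437 CPM in vehicle and 1319 CPM with the extract (-0.12, SE 0.0322, adjusted p = 0.00491), and 10 of 18 were lower against Zizyphi Fructus. A fit without 3 libraries that differ from the rest of the series had 9 of 18 lower against vehicle. None of the 3 is a vehicle or Coptidis library, but Zizyphi Fructus 20 ug/mL replicate 1 is among them.

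NRF2 targets, genes of the antioxidant response, were called higher in 16 of 22 and lower in 1, with a median of 0.24. SLC7A11, counted here too, led them, followed by AKR1B10, an aldo-keto reductase, at 98.0, 97.1 and 97.3 CPM in vehicle and 153.1, 147.5 and 159.5 CPM with the extract (0.65, SE 0.0604, adjusted p = 6.14e-12). SRXN1, which repairs peroxiredoxins, rose by 0.44, the efflux pump ABCC2 by 0.42 and the ferritin light chain FTL, among the 5 most abundant genes that rose, by 0.28. The member that fell was HMOX1, haem oxygenase, at 51.77, 53.97 and 54.64 CPM in vehicle and 46.1, 47.0 and 48.7 CPM with the extract (-0.18, adjusted p = 0.01), a call lost without Coptidis replicate 1. Its fall was -0.38 against Zizyphi Fructus, and 14 of 22 members were higher after GC correction.

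Immediate early genes, whose transcription follows growth factor and stress kinases within minutes, were called higher in 12 of 19 and lower in none, with a median of 0.40 (0.34 after GC correction). DUSP6, a phosphatase of ERK, stood at 49.4, 49.1 and 51.8 CPM in vehicle and 80.1, 80.5 and 85.7 CPM with the extract (0.71, SE 0.0445, adjusted p = 1.26e-17). IER3 (0.73), the ERK pathway inhibitor SPRY4 (0.71) and the zinc finger factor EGR1 (0.70) rose by like amounts. FOS, at a mean of 0.633 CPM in vehicle and 0.975 CPM with the extract, did not pass the test (0.61, adjusted p = 0.211).

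**Figure D4:**
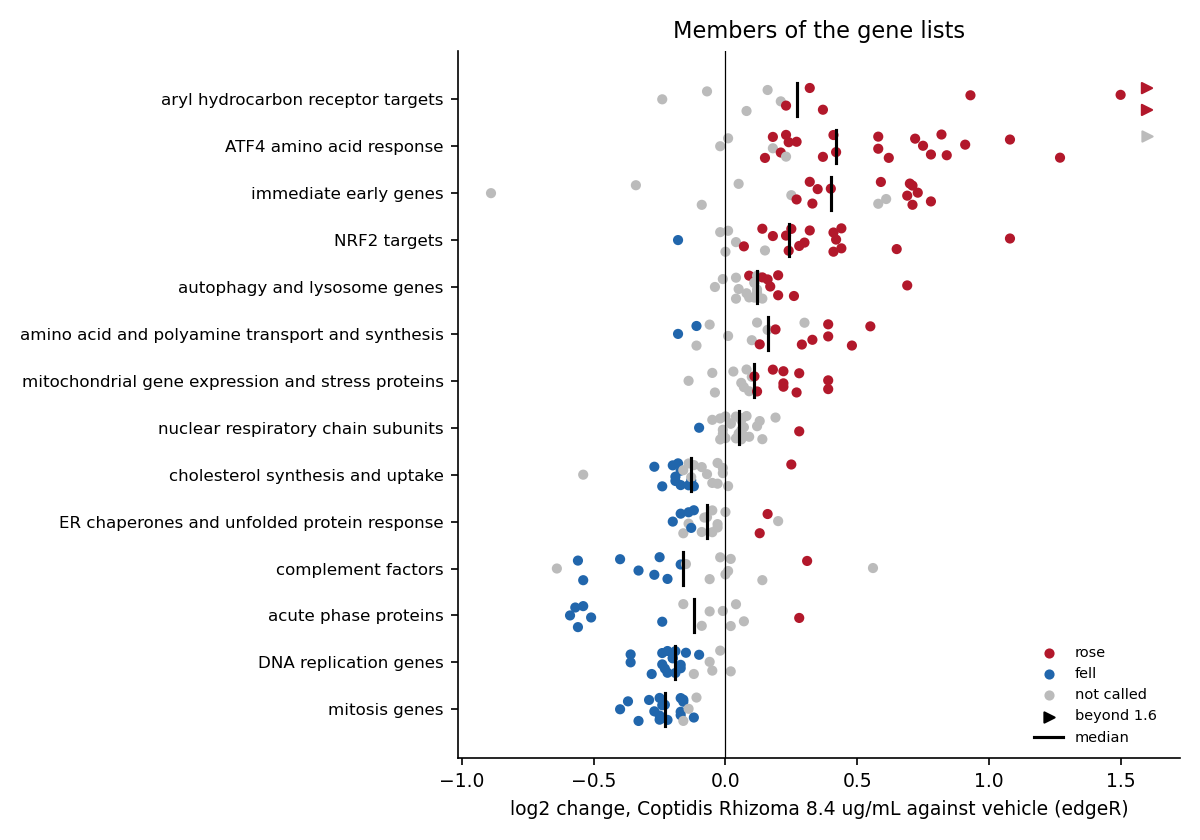
Log2 change at 8.4 ug/mL against vehicle of each tested member of 14 gene lists, with called members in colour, others in grey and the list's median as a bar; 3 members beyond 1.6 are drawn as triangles at the edge. Called members of the AHR, ATF4 and immediate early lists lie to the right of 0, those of the mitosis and DNA replication lists to the left, and nuclear respiratory chain subunits centre near 0.

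IGFBP1, a secreted binding protein of insulin-like growth factors that insulin represses, rose 2.02-fold, from 37.5, 37.0 and 44.8 CPM in vehicle to 75.6, 78.6 and 86.8 CPM with the extract (1.02, SE 0.0904, adjusted p = 1.91e-12). No Coptidis library overlapped vehicle, and the level at 42 ug/mL was 658.6 CPM (3.03 against 8.4 ug/mL, adjusted p = 8.55e-32). The FOXO and insulin-repressed genes, IGFBP1 included, were mixed, with 5 of 17 called higher and 4 lower and a median of -0.01.

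TXNIP (chr1:145992435-145996600), a glucose-induced inhibitor of glucose uptake and of thioredoxin, fell at 8.4 ug/mL and was near its vehicle level at 42 and 210 ug/mL (-0.06 and 0.06 against vehicle). It stood at 29.3, 32.1 and 30.4 CPM in vehicle, 15.0, 16.6 and 17.2 CPM at 8.4 ug/mL (-0.91, SE 0.0518, adjusted p = 7.78e-19) and 29.7, 29.8 and 28.8 CPM at 42 ug/mL. The 8.4 ug/mL libraries lay below those of vehicle and 42 ug/mL and below the 9 Zizyphi Fructus libraries (28.0 to 32.9 CPM), and 42 differed from 8.4 ug/mL by 0.85 (adjusted p = 5.69e-19). Its relative ARRDC4, a further target of MondoA, stood at 4.202, 4.558 and 4.126 CPM in vehicle, 2.77, 2.48 and 2.42 CPM at 8.4 ug/mL and 4.30, 3.71 and 4.23 CPM at 42 ug/mL (8.4 against vehicle -0.75, adjusted p = 2.07e-06; 42 against 8.4: 0.68, adjusted p = 4.71e-06). These 2 were the members called lower of 10 tested on the glucose sensing list, with a median of -0.02. TKFC was the member called higher (0.16), with overlapping groups and 0.06 against Zizyphi Fructus (adjusted p = 0.386), and its call was lost without any 1 of 4 libraries (vehicle replicates 1 and 2, Coptidis replicates 1 and 3).

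Of 26 genes of glycolysis and hypoxia 6 were called higher and 2 lower, with a median of 0.03. The glucose carrier SLC2A1 stood at 542.9, 515.9 and 554.0 CPM in vehicle and 688.5, 702.9 and 743.0 CPM with the extract (0.40, SE 0.035, adjusted p = 8.61e-13). Hexokinase HK2 rose by 0.44 and the enolase ENO2 by 0.31, while SLC2A3, another glucose carrier, fell by 0.41. CA9, a hypoxia marker, did not pass the test (-0.41, adjusted p = 0.459).

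**Figure D5:**
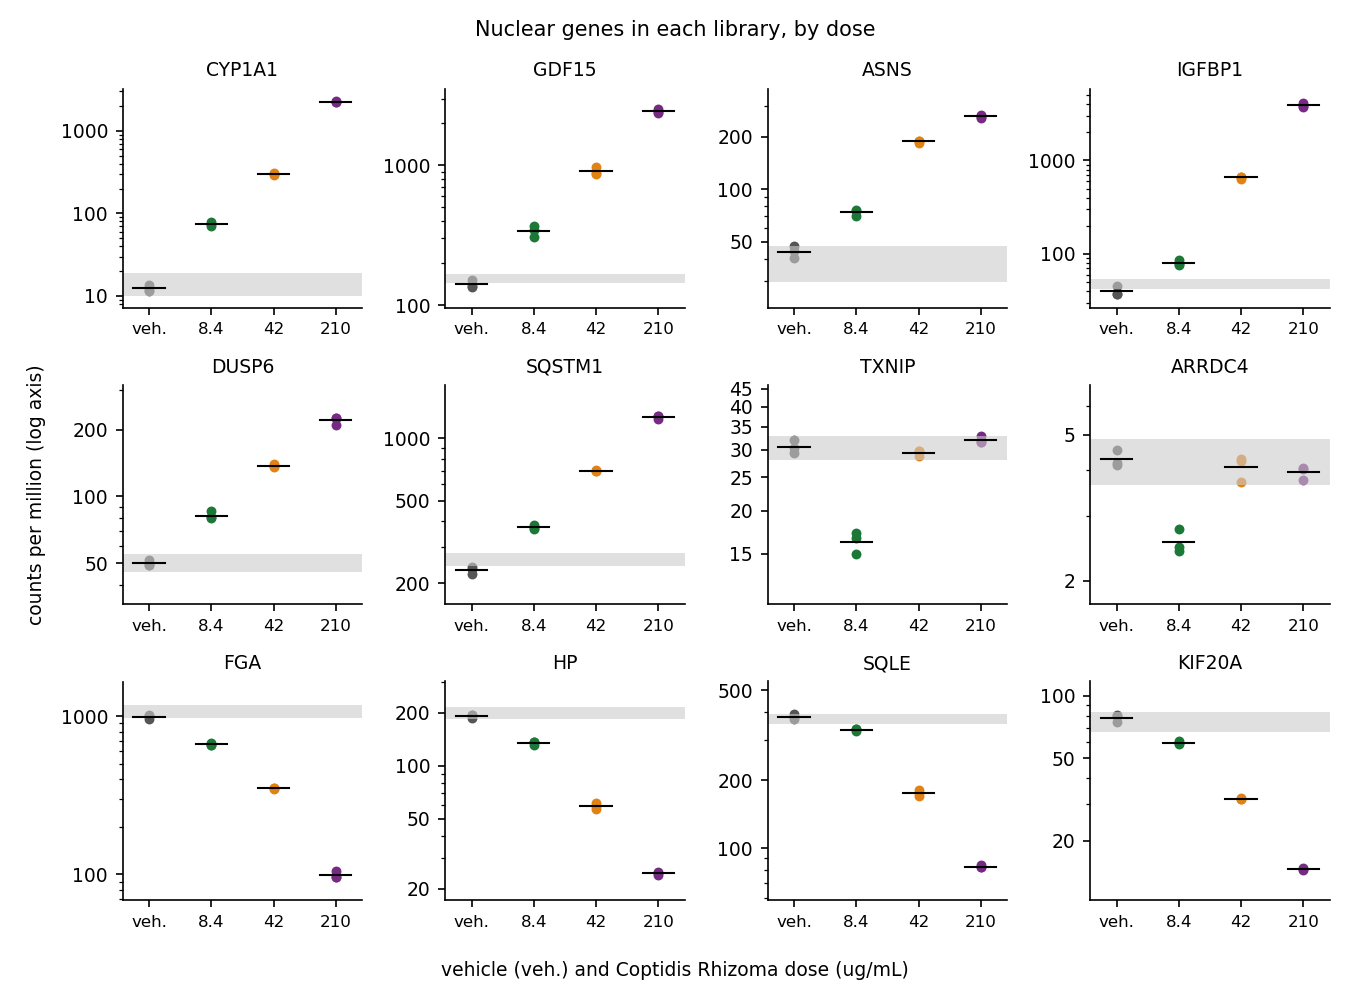
CPM (log axis, ranges differ between panels) of 12 nuclear genes in each library of vehicle and of Coptidis Rhizoma at 8.4, 42 and 210 ug/mL, with group means as bars and the range of the 9 Zizyphi Fructus libraries as a grey band. CYP1A1, GDF15, ASNS, IGFBP1, DUSP6 and SQSTM1 climb and FGA, HP, SQLE and KIF20A fall with each dose, while TXNIP and ARRDC4 leave the band at 8.4 ug/mL.

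Cell division genes were lower. Of 20 mitosis genes 17 were called lower and none higher (median -0.23), and of 21 DNA replication genes 16 were lower and none higher (median -0.19), against 7.39% of all genes called lower. KIF20A, a kinesin of cytokinesis, stood at 79.4, 74.6 and 81.0 CPM in vehicle and 59.4, 58.7 and 60.2 CPM with the extract (-0.40, SE 0.0422, adjusted p = 3.42e-10). The spindle kinesin KIF11 fell by 0.37, GINS2 of the replicative helicase by 0.36 and MCM2, another part of that helicase, by 0.20, while the mitotic cyclin CCNB1 did not pass the test (-0.11, adjusted p = 0.123). Against Zizyphi Fructus 14 of 20 mitosis genes and 14 of 21 replication genes were lower, with smaller medians of -0.13 and -0.14. In bulk libraries, fewer dividing cells and less RNA per cell cannot be told apart.

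p53 targets went both ways, with 5 of 22 higher and 5 lower. The largest rise on the list was that of GDF15 (1.27), counted with the ATF4 targets too. The count higher was 3 after GC correction, without vehicle replicate 1 or without Coptidis replicate 1. CDKN1A, the inhibitor of cyclin-dependent kinases, rose by 0.26 (95.2 to 113.8 CPM, adjusted p = 0.000233) and DDB2, of DNA repair, fell by 0.33.

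Secreted liver proteins fell in part. The 3 fibrinogen chains fell by like amounts: FGA (chr4:154583126-154590766) from 1003, 961.9 and 1021 CPM to 654.1, 657.3 and 677.7 CPM (-0.59, SE 0.0357, adjusted p = 6.88e-18), FGB by 0.56 and FGG by 0.57. The haemoglobin scavenger HP stood at 194.0, 195.0 and 185.6 CPM in vehicle and 130.7, 136.9 and 137.0 CPM with the extract (-0.51, SE 0.042). None of these groups overlapped. In all, 6 of 14 tested acute phase genes were lower and 1 higher, with a median of -0.12, and CRP was at 0 in both groups. Of 18 complement genes 8 were lower and 1 higher (median -0.16), among them the regulator CFI (-0.33) and C8A of the membrane attack complex (-0.56), while C3 did not pass the test (-0.06).

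Of 19 hepatocyte secreted and carrier proteins 6 were lower and 1 higher (median -0.03). Albumin, ALB, fell by 0.20 (10310, 10710 and 10850 CPM in vehicle and 9112, 9111 and 9579 CPM with the extract, adjusted p = 0.00858) and did not pass against Zizyphi Fructus (-0.12, adjusted p = 0.0563). Transferrin, TF, fell by 0.32 and APOC3, an inhibitor of lipoprotein clearance, by 0.47. Of 18 coagulation genes 5 were lower and 2 higher, with 3 lower without Coptidis replicate 3 or with no filter on low counts; SERPINF2, which inhibits plasmin, fell by 0.21 and TFPI, which inhibits the tissue factor pathway, rose by 0.26.

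Genes of cholesterol synthesis and uptake were lower in part. SQLE, squalene epoxidase, stood at 390.8, 374.7 and 379.8 CPM in vehicle and 335.3, 331.5 and 338.3 CPM with the extract (-0.19, SE 0.0327, adjusted p = 2.28e-05). TMEM97, a sterol-regulated membrane protein, stood at 230.1, 230.9 and 227.7 CPM in vehicle and 196.8, 189.3 and 195.5 CPM with the extract (-0.24, SE 0.04, adjusted p = 8.57e-06). Neither gene's groups overlapped. Of the 25 genes of the list 11 were lower and 1 higher, with a median of -0.13, and the count of lower members was 7 without vehicle replicate 2, without vehicle replicate 3 or without Coptidis replicate 2. At 42 ug/mL SQLE and TMEM97 were lower than at 8.4 ug/mL by 0.94 and 1.01 on the log2 scale (adjusted p = 6.69e-28 and 1.46e-25).

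Of 14 genes of fatty acid synthesis 2 were lower (FADS2 -0.20 and FADS1 -0.14, both desaturases) and none higher, where 7.39% and 8.58% of all genes were. FASN had 1421 CPM in vehicle and 1597 CPM with the extract and did not pass the test (0.17, adjusted p = 0.207). Of 16 genes of fatty acid oxidation 5 were lower and 1 higher, and CPT1A, which admits fatty acids to mitochondria, did not pass (0.07).

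The nuclear receptor NR0B2, a repressor of bile acid synthesis, rose from 42.1, 40.1 and 42.1 CPM to 63.6, 62.1 and 73.5 CPM (0.68, SE 0.066, adjusted p = 2.48e-11), while NR1H4, the bile acid receptor that induces it, fell by 0.30 and KLB, coreceptor of FGF19, by 0.34. HNF4A, the master regulator of hepatocyte genes, did not pass the test (0.02). CEBPB rose by 0.91 against vehicle (adjusted p = 0.000182) but stood at 39.2 CPM within the range of the Zizyphi Fructus libraries (24.6 to 41.7 CPM), with 0.28 there (adjusted p = 0.166). Of 15 PXR and CAR targets and phase II enzymes 2 were higher and 2 lower, the glutathione transferases GSTA1 (-0.50) and GSTA2 (-0.59), close copies whose reads can be shared. CYP3A4 was near 0 in both groups (0.286 and 0.327 CPM).

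SQSTM1, a receptor of selective autophagy and an NRF2 target, led 8 of 22 autophagy and lysosome genes called higher, with none lower. It stood at 222.0, 234.8 and 239.1 CPM in vehicle and 370.2, 367.0 and 382.5 CPM with the extract (0.69, SE 0.0399, adjusted p = 1.43e-18). The count was 5 without vehicle replicate 2 or without Coptidis replicate 1. Of 17 genes of amino acid and polyamine transport and synthesis 8 were higher and 2 lower, led by SAT1, which acetylates polyamines (0.55), and the glutamine carrier SLC1A5 (0.48). Of 13 NF-kappaB targets and chemokines 6 were higher and 1 lower, with the chemokine CCL20 from 20.3, 22.3 and 23.5 CPM to 41.7, 39.9 and 42.6 CPM (0.91, SE 0.0952) and NFKBIA not past the test (-0.07); against Zizyphi Fructus 3 were higher and 2 lower.

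Metallothioneins, zinc-binding proteins that zinc induces, fell against vehicle only in part, and MT2A and MT1X did not pass the test. Of the 11 tested genes of the list, which holds zinc transporters too, 4 were lower and 1 higher. MT1F fell by 0.47 (a mean of 55.1 CPM to 40.3, 37.4 and 41.4 CPM), MT1E by 0.31 and MT1M, at 1.82 and 0.952 CPM, by 0.92. MT1E and MT1M lost their calls without Coptidis replicate 2 or vehicle replicate 3. None of the 3 passed against Zizyphi Fructus (-0.15, -0.04 and -0.40), whose libraries reached down to 34.7 CPM for MT1F, and their sequences are close enough to share reads. Hepcidin, HAMP, the iron hormone, went against its other comparison: it fell by 0.27 against vehicle (adjusted p = 0.00196) and was higher by 0.18 against Zizyphi Fructus (adjusted p = 0.0127). IFIT1, an interferon-induced RNA sensor, fell from 3.01, 2.51 and 2.36 CPM to 1.70, 1.05 and 1.06 CPM (-1.06, SE 0.167, adjusted p = 3.87e-06), and of 14 interferon response genes 3 were lower and 1 higher.

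Some of the largest changes by fold were of genes at low levels and held only against vehicle. UQCRFS1P1 stood at 0.0771, 0.152 and 0.481 CPM in vehicle and 2.99, 2.31 and 1.47 CPM with the extract (3.23, SE 0.871), but at 2.13 to 4.59 CPM in Zizyphi Fructus libraries (-0.42, adjusted p = 0.603). ABHD14A-ACY1 (6.48-fold), PALM2AKAP2 (1.81), TMEM160 (1.46) and C4orf48 (1.45) also rose against vehicle and did not pass against Zizyphi Fructus, and TMEM160 and C4orf48 have 72.3% and 73.2% GC. Each of these 4 calls was lost without 1 or more single libraries. PHLDA2, an imprinted growth regulator, rose by 1.17 against vehicle and had 0.53 against Zizyphi Fructus (adjusted p = 0.0531). METRNL, a secreted factor, rose in both (1.25 and 1.14), from 0.732, 0.874 and 1.08 CPM to 1.56, 2.56 and 2.24 CPM.

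Of the 12 largest falls, 3 were mitochondrial mRNAs and TXNIP, IFIT1 and MT1M are given above. ACSL3P1, a processed copy of a fatty acid activating enzyme's gene, fell from 7.29, 8.43 and 8.57 CPM to 3.58, 3.49 and 3.52 CPM (-1.20, SE 0.105, adjusted p = 1.31e-12), though reads of ACSL3 could be counted there. GNMT, which uses up S-adenosylmethionine (-0.86), the amino acid carrier SLC38A4 (-0.86), the lipid droplet coat PLIN1 (1.175 to 0.5807 CPM) and the receptor LAIR1 (-0.97) fell in both comparisons, while the antisense RNA PSMD6-AS2 (-0.91) did not pass against Zizyphi Fructus. The calls of PLIN1, PSMD6-AS2 and MT1M were lost without single libraries.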

How the data were processed

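HepG2 cells were profiled by RNA sequencing (59 libraries, 20 groups, 3 libraries in each group compared here). The authors deposited RSEM expected counts per gene. Their tools were RSEM 1.3.3, STAR 2.7.3a, Trim Galore 0.6.5 and FastQC 0.11.9 with GRCh38, per the submitters' processing notes. For the annotation and the strand setting no source used here gives a statement. Of 267 columns, 59 matched samples and 208 were not used. Expected counts were rounded to whole numbers (24.4% of values above 0 were not whole). Gene names were matched for 41209 of 60675 identifiers, and coordinates come from GENCODE release 29.

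Genes were tested with edgeR 4.0.16 (filterByExpr, TMM, quasi-likelihood test, 20 group means over all 59 libraries), two-sided, with Benjamini-Hochberg adjustment over 16641 genes and a threshold of 0.05; CPM are TMM-scaled. Library totals ran from 21582603 to 31392069 counts. The scripts were tested on simulated data. Replicate pairs differed by more than counting error (mean chi-square per gene 2.01 to 11.1 within the 2 groups), so none was counted as 1 library. Coptidis replicate 3 differed most, with 7.905 and 11.11 against Coptidis replicates 1 and 2, which had 3.242 against each other.

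Members and gene lists were chosen with earlier results of these data known. Genes named are the 12 largest rises and falls among called genes of at least 1 CPM with a symbol, the 5 most abundant in each direction, and from each of 36 lists the defining member and up to 4 called members of smallest p; members outside this rule were chosen after their values were seen. Alternatives were RLE scaling, DESeq2 1.42.0, no filter, only the groups compared, a replicate block, leaving out libraries, and, added after seeing the data, GC correction and leaving out mitochondrial genes. Some genes are not reported here.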

Additional observations from a re-analysis of the deposited data

How the results depend on the processing

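For Coptidis Rhizoma 8.4 ug/mL against vehicle, the count of 2656 calls stayed within 1.5 times under every alternative setting of the fit: 2654 with RLE scaling, 2574 with DESeq2, 2373 with no filter, 3158 in a fit of the 2 groups and 2657 with GC correction. It was 3346 in a fit without 3 libraries, outside these 2 groups, that differ from the rest. Leaving out single libraries gave 1952 to 2303 calls. A threshold of 1.5-fold left 258, by its construction. Against Zizyphi Fructus the count of 2989 fell to 1859 in a fit of only the groups compared. That fit tested 15366 genes, and the reason for the fall was not tested. Leaving out single Coptidis libraries gave 2141 to 2219. The 3 libraries that differ include Zizyphi Fructus 20 ug/mL replicate 1, with a mean chi-square per gene of 14.44 and 30.05 against its replicates. Without the 3 the count against Zizyphi Fructus was 3656. For 42 against 8.4 ug/mL the counts without 1 library ran from 4601 to 4762 against 5278.

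Whether the replicate numbers in the titles pair the samples is not stated. The deviations of same-numbered vehicle and Coptidis libraries correlated at 0.05, 0.06 and 0.16, and those of unlike number at -0.13 to 0.08. Vehicle replicate 1 correlated best with Coptidis replicate 2 (0.08), while vehicle replicates 2 and 3 did so with their own number. Values this small do not decide whether the samples are paired. With the replicate number as a block 2692 genes were called against vehicle, 3006 against Zizyphi Fructus and 5306 between doses, and none of the 152 named genes called lost its call. Of these 152, 128 kept call and direction under every alternative that gave them a value, and none reversed. DESeq2 gave no adjusted p for ABHD14A-ACY1, PLIN1 and MT1M, which are in no count of its lost calls. Calls lost outside the leave-outs were those of PLAU (DESeq2, no filter, 2 groups), SDHA, DNAJA1, IGFBP4 and NOTUM (GC correction), EDEM1, SDHA, DNAJA1, TFRC, SLC11A2 and FOXA1 (no filter) and SDHA and FOXA1 (2 groups); the cause was not tested. With 3 libraries a group, precision differed between genes: the SE of the log2 change was 0.871 for UQCRFS1P1, at 0.237 CPM in vehicle, and 0.0357 for FGA, at 995.3 CPM. It did not follow the level alone, being 0.119 for MT-ND5, at 3240 to 5538 CPM in the 50 libraries without Coptidis. The SE rests on a spread per gene shared by all 20 groups.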

Other observations

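Among Wnt feedback targets 3 of 13 were higher and 1 lower. DKK1, a secreted Wnt inhibitor, stood at 109.1, 107.3 and 108.2 CPM in vehicle and 81.8, 82.2 and 86.5 CPM with the extract (-0.37, edgeR adjusted p = 8.18e-06), and no library overlapped. SP5, a Wnt-induced transcription factor, rose by 0.38 against vehicle, from 103.7, 113.6 and 122.7 CPM to 142.1, 147.5 and 153.8 CPM, and had -0.06 against Zizyphi Fructus (adjusted p = 0.672), whose libraries ran from 135.9 to 167.4 CPM. AXIN2 did not pass the test (-0.07). ID1, a target of BMP signals, rose by 0.39 against vehicle and by 0.22 against Zizyphi Fructus.

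Of 9 tested matrix proteases and their inhibitors 3 were higher and 1 lower: TIMP1 rose by 0.29 and TIMP3, another inhibitor of matrix proteases, fell by 0.20. TRIB1, a pseudokinase that marks other proteins for degradation, rose from 62.22, 59.41 and 61.97 CPM to 91.2, 92.9 and 88.6 CPM (0.57, edgeR adjusted p = 1.16e-15).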
